A study of Mus musculus with 9 samples.

Results

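Endothelial cells, the barrier they form in brain vessels and the pericytes that wrap them were followed through 32 genes listed for these cell types by role. A gene was read from a probe set that names it alone, and 31 of the 32 had one, among 19938 genes measured in this way. Ly6c1, an endothelial surface protein gene, was left out because both of its probe sets also name Ly6c2. The 31 genes fall into 6 junction and adhesion genes, 5 signalling receptors, 4 other endothelial surface or secreted proteins, 7 transporters, 6 pericyte genes and 3 transcription factors.

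The samples were 9 mouse brain RNAs, each on 1 Affymetrix array, in 3 groups of 3. The APP-amylin group were 5xFAD mice given the human peptide amylin, the APP-PBS group were 5xFAD mice given phosphate-buffered saline (PBS), and the WT group were B6SJLF1/J wild-type mice given PBS. All were injected into the abdomen every day for 10 weeks and were about 5 months old, and the labels name The Jackson Laboratory as the source. The labels give the tissue as brain and the series text as cortex. The 5xFAD line carries human transgenes driven by the neuronal Thy1 promoter and deposits amyloid in the brain, so it models amyloid load from transgenes and not sporadic disease. Amylin is a peptide hormone of the pancreas. The APP-PBS against WT comparison asks how these genes differ between transgenic and wild-type mice. An effect of the transgenes cannot be told apart there from a difference in the brain regions taken, as given below. The APP-amylin against APP-PBS comparison asks what amylin does in transgenic mice. Amylin in wild-type mice is not analysed here. The arrays are labelled as biological replicates and nothing more is said of litter or sex, so the p-values measure the spread between these samples.

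In brain capillaries the endothelial cells are sealed to each other by tight and adherens junctions and carry few transport vesicles. Nutrients therefore enter through dedicated transporters, and efflux pumps return many drugs and metabolites to the blood. Wnt, VEGF, angiopoietin and PDGF signals, together with pericytes in the shared basement membrane, maintain this state.

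Values are RMA log2 intensities, so a difference of 1 is a doubling, and levels are not compared between genes. A gene was called at a Benjamini-Hochberg adjusted p under 0.05 over all 19938 genes, in a limma fit of all 9 arrays with 3 comparisons. Differences are given as first group minus second with the standard error of that fit, and group values as mean ± SD with n = 3. The array medians lay between 5.71 and 5.79. The number of arrays limits the precision: the median standard error of a difference was 0.07 over all genes and 0.081 over the members. In bulk tissue, fewer cells of a type and less RNA per cell cannot be told apart.

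Markers of other brain regions and cell types also differed between the groups. The 6 striatum markers measured were all called higher in APP-PBS than in WT, with summed log2 levels of 58.2 to 58.93 in APP-amylin, 58.16 to 59.47 in APP-PBS and 47.33 to 49.43 in WT. Hippocampus markers were lower, 4 of 6 called, with sums of 39.68 to 40.43 in APP-amylin, 39.51 to 40.3 in APP-PBS and 45.37 to 45.96 in WT. Thalamus markers were lower too, 5 of 6 called, with sums of 45.18 to 49.61 in APP-amylin, 45.8 to 47.46 in APP-PBS and 51.94 to 54.21 in WT. No cortex marker of 6 was called, with sums of 51.35 to 51.75 in APP-amylin, 50.36 to 52.83 in APP-PBS and 51.01 to 52.56 in WT. All 6 microglia markers were called higher, with sums of 46.3 to 47.74 in APP-amylin, 46.55 to 48.9 in APP-PBS and 42.67 to 42.95 in WT. Oligodendrocyte markers had sums of 47.79 to 48.94 in APP-amylin, 49.0 to 49.78 in APP-PBS and 50.13 to 51.21 in WT. The striatum, hippocampus, thalamus, microglia and oligodendrocyte sums separated both transgenic groups from WT, as did the olfactory bulb sums given below. Of the members called below, Slco1a4 and Itm2a show that split, while for Emcn, Atp13a5 and Mfsd2a the APP-amylin and WT arrays overlapped. The part of these marker shifts in the results was not tested. A difference in the brain regions that were taken and an effect of the transgenes cannot be told apart in the comparisons with WT. RMA values have no zero, so a level does not show whether a marker was detected. Between APP-amylin and APP-PBS, no gene of any marker list was called.

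Single arrays stood out among the members. APP-PBS replicate 3 was the highest of the 9 arrays for 8 members and lay above the gene's mean for 26 of 31. WT replicate 2 was the lowest for 11 members, among them Cldn5, Cdh5, Flt1 and Kdr. Leaving out both of these arrays, a choice made after seeing the data, is given beside each call it ends and, for the larger differences of APP-PBS from WT, beside each value it moves by over 1.5 times.

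Against WT, APP-PBS brains had higher Slco1a4, Emcn, Atp13a5 and Itm2a and lower Mfsd2a. These 5 members, 16.1% of 31, were called, where 8.58% of all genes were called in this comparison. By direction, 4 were higher and 1 was lower, where 3.66% of all genes were called higher and 4.92% lower. Slco1a4, an organic anion carrier of the endothelium, was 1.55-fold higher, and Mfsd2a, the endothelial carrier of lysophosphatidylcholine-bound docosahexaenoic acid, was 0.705-fold of WT. Of the 31 means, 23 were higher in APP-PBS (74.2%, where 45.9% of all genes had a higher mean), and the median difference was 0.16 for the members and -0.01 for all genes. The 3 arrays of each group did not overlap for 17 members (54.8%), against 26.8% of all genes. Of these, 16 were higher and 1 was lower in APP-PBS, against 11.2% and 15.6% of all genes. The members were chosen with earlier results of these data known, so shares above those of all genes are no test of the list. The count of called members was 1 (3.23%), Slco1a4, when APP-PBS replicate 3 and WT replicate 2 were both left out, where 2.24% of all genes were called. It was 2 (6.45%), Slco1a4 and Atp13a5, without WT replicate 1, where 4.33% of all genes were called. It was 3 (9.68%), these and Emcn, without APP-PBS replicate 1, APP-PBS replicate 3, WT replicate 2 or WT replicate 3 alone, where 4.86% to 6.55% of all genes were called. With array weights it was 10 (32.3%), which added Cldn5, Cdh5, Flt1, Eng and Slco1c1, and 11.5% of all genes were called.

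**Figure D1:**
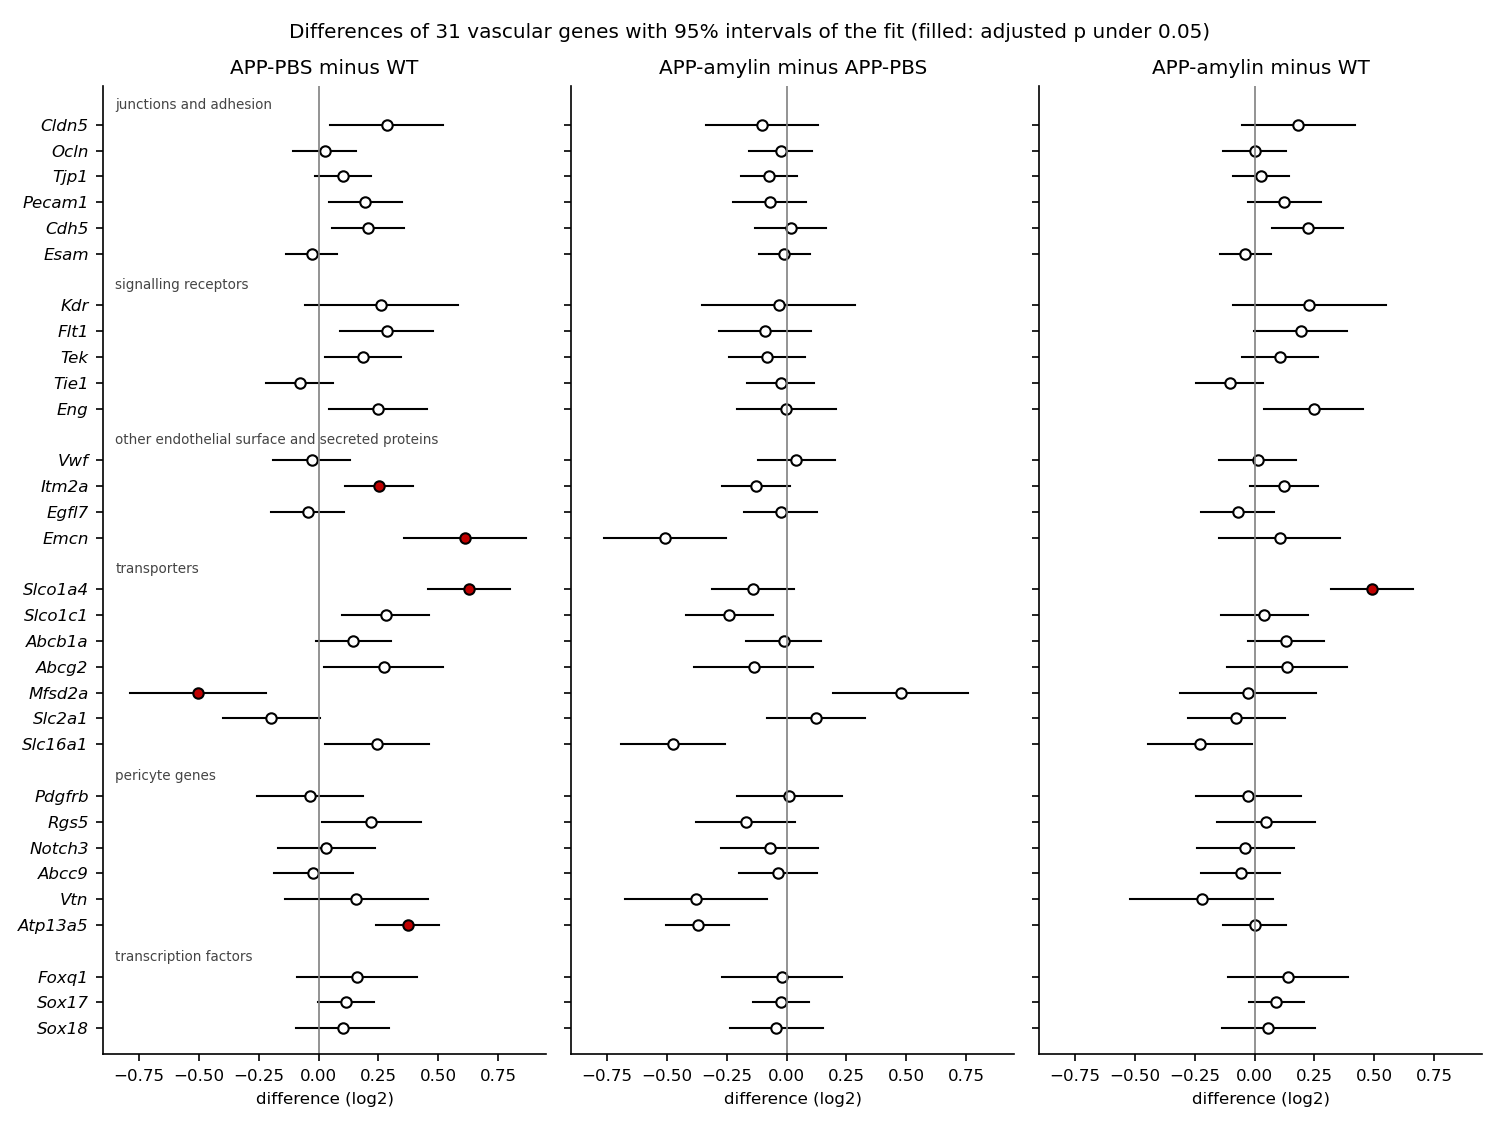
Difference in log2 intensity of each of the 31 genes, grouped by role, for APP-PBS minus WT, APP-amylin minus APP-PBS and APP-amylin minus WT, with 95% intervals of the limma fit (n = 3 arrays a group). Filled points mark an adjusted p under 0.05: Itm2a, Emcn, Slco1a4 and Atp13a5 above 0 and Mfsd2a below 0 in the first panel, none in the second and Slco1a4 in the third.

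Among the transporters, Slco1a4 had the clearest difference. It measured 7.84, 7.74 and 8.04 in the APP-amylin arrays, 8.10, 7.98 and 7.96 in the APP-PBS arrays and 7.36, 7.40 and 7.40 in the WT arrays. All 6 transgenic arrays lay above all 3 WT arrays, and the 2 transgenic groups overlapped. APP-PBS averaged 8.01 ± 0.07 and WT 7.38 ± 0.02, a difference of 0.63 ± 0.08 (limma, adjusted p = 0.00139), and it remained called in all 19 alternatives, with adjusted p from 0.00043 to 0.0339. APP-amylin averaged 7.87 ± 0.16 and differed from WT by 0.49 ± 0.08 (limma, adjusted p = 0.00737), a 1.40-fold higher level. Slco1a4 was the member called in that comparison, 1 of 31 (3.23%), against 5.21% of all genes called in either direction and 2.35% called higher. Its call was lost when APP-PBS replicate 3 and WT replicate 2 were left out (limma, adjusted p = 0.0605). The difference between APP-amylin and APP-PBS was -0.14 ± 0.08 (limma, adjusted p = 0.769).

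Mfsd2a was the transporter that fell. It measured 8.79, 8.55 and 8.23 in APP-amylin, 8.11, 8.11 and 7.92 in APP-PBS and 8.66, 8.47 and 8.52 in WT. Every APP-PBS array lay below every array of the other 2 groups, while APP-amylin and WT overlapped. APP-PBS averaged 8.05 ± 0.11 and WT 8.55 ± 0.10, a difference of -0.50 ± 0.13 (limma, adjusted p = 0.0385). That call was lost without APP-amylin replicate 2, which shares in the estimate of spread (limma, adjusted p = 0.0579), and when any 1 APP-PBS or WT array was left out (limma, adjusted p from 0.0739 to 0.151). It was also lost without APP-PBS replicate 3 and WT replicate 2 together (limma, adjusted p = 0.203). APP-amylin averaged 8.52 ± 0.28, which differed from APP-PBS by 0.48 ± 0.13, with a 95% interval from 0.19 to 0.76, and was not called (limma, adjusted p = 0.630).

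The promoter windows of Slco1a4, Mfsd2a and Emcn, which encodes the sialomucin endomucin, are shown because these members had the 3 largest differences between APP-PBS and WT, in both directions. They run from 250 bases before to 50 bases after the start and are taken from RefSeq on GRCm38.p6, which held a window for 23 of the 31 members. The capitals mark AACAAT, a SOX motif, searched on both strands. Slco1a4 lies at chr6:141856171-141856470 on the minus strand, Emcn at chr3:137340828-137341127 on the plus strand and Mfsd2a at chr4:122961139-122961438 on the minus strand.
Slco1a4: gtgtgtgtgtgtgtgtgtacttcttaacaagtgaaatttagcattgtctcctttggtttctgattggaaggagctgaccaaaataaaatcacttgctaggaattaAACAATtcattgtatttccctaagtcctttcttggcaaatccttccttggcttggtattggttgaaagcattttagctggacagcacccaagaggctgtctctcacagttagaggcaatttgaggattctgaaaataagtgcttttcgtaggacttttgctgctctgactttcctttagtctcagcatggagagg
Emcn: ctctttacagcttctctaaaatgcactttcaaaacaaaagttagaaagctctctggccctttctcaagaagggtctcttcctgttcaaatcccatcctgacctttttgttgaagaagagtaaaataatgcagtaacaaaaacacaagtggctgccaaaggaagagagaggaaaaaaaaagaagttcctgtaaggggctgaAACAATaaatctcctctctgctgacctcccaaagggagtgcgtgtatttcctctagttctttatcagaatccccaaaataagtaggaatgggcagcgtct
Mfsd2a: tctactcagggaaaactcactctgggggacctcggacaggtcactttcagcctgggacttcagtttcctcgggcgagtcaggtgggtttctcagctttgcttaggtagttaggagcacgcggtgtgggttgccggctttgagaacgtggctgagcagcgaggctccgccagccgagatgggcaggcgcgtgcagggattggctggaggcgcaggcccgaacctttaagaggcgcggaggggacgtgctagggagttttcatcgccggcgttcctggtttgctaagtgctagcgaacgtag
The match in Slco1a4 covers bases 106 to 111 of its window and that in Emcn bases 201 to 206. The Mfsd2a window has no match, 22 CpG dinucleotides and 60.3% G and C, while the Slco1a4 window has 1 CpG and 40.7% and the Emcn window 2 CpG and 41.0%. AACAAT, with its reverse complement ATTGTT, occurred in 3 of 28 member windows (10.7%) and in 10.7% of all 32851 windows. The other motifs searched were the ETS core CCGGAA, in 7.14% of member windows and 14.9% of all, the TCF/LEF motif ATCAAAG, in 3.57% and 3.73%, and the glucocorticoid receptor motif AGAACA, in 14.3% and 19.0%. A match is a description of the letters and not a bound site.

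The other 5 transporters were not called in any comparison. Slc16a1, the monocarboxylate transporter MCT1, measured 7.38, 7.52 and 7.68 in APP-amylin, 7.80, 8.15 and 8.05 in APP-PBS and 7.79, 7.78 and 7.70 in WT. APP-amylin lay wholly below both other groups, and APP-PBS lay wholly above WT. The differences were 0.24 ± 0.10 for APP-PBS minus WT (limma, adjusted p = 0.180), -0.47 ± 0.10 for APP-amylin minus APP-PBS (limma, adjusted p = 0.495) and -0.23 ± 0.10 for APP-amylin minus WT (limma, adjusted p = 0.234). Slco1c1, a carrier of thyroid hormone, measured 8.72, 8.52 and 8.77 in APP-amylin, 8.79, 8.96 and 8.98 in APP-PBS and 8.53, 8.67 and 8.69 in WT. The APP-PBS arrays were above all others. The differences were 0.28 ± 0.08 for APP-PBS minus WT (limma, adjusted p = 0.0687) and -0.24 ± 0.08 for APP-amylin minus APP-PBS (limma, adjusted p = 0.675).

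Abcg2, an efflux pump, measured 6.92, 7.14 and 7.34 in APP-amylin, 7.22, 7.42 and 7.16 in APP-PBS and 6.97, 6.90 and 7.12 in WT. APP-PBS lay above WT by a narrow margin, and APP-amylin spread over both. The difference of APP-PBS from WT was 0.27 ± 0.11 (limma, adjusted p = 0.193). Abcb1a, which encodes the efflux pump P-glycoprotein, differed by 0.14 ± 0.07 between APP-PBS and WT (limma, adjusted p = 0.283), with a 95% interval from -0.01 to 0.30. It was 0.07 without WT replicate 2 and 0.05 without APP-PBS replicate 3 as well. Slc2a1, the glucose transporter GLUT1, differed by -0.20 ± 0.09 (limma, adjusted p = 0.252), with an interval from -0.40 to 0.01. For GLUT1, the APP-PBS and WT arrays overlapped, and the difference was -0.13 without APP-PBS replicate 3.

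No junction or adhesion gene was called. Cldn5, the main claudin of brain endothelial tight junctions, measured 7.42, 7.36 and 7.54 in APP-amylin, 7.44, 7.44 and 7.76 in APP-PBS and 7.43, 7.12 and 7.22 in WT. The lowest APP-PBS arrays were barely above WT replicate 1, and APP-amylin overlapped both other groups. The difference of APP-PBS from WT was 0.28 ± 0.11 (limma, adjusted p = 0.149), with a 95% interval from 0.05 to 0.52. It was 0.18 without APP-PBS replicate 3 and 0.11 without APP-PBS replicate 3 and WT replicate 2.

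Cdh5, the VE-cadherin of adherens junctions, measured 7.18, 7.24 and 7.36 in APP-amylin, 7.25, 7.20 and 7.28 in APP-PBS and 7.12, 6.92 and 7.07 in WT. Both transgenic groups lay above WT and overlapped each other. The differences from WT were 0.21 ± 0.07 for APP-PBS (limma, adjusted p = 0.101) and 0.22 ± 0.07 for APP-amylin (limma, adjusted p = 0.0969). Without APP-PBS replicate 3 and WT replicate 2, that of APP-PBS was 0.13. Pecam1, an adhesion molecule at endothelial contacts, measured 6.45, 6.51 and 6.45 in APP-amylin, 6.45, 6.54 and 6.63 in APP-PBS and 6.44, 6.23 and 6.36 in WT. Again both transgenic groups lay above WT, by a narrow margin over WT replicate 1. The lowest transgenic value, 6.4467 against 6.4373 in WT replicate 1, stood in APP-amylin replicates 1 and 3 and APP-PBS replicate 1 alike. For Pecam1, APP-PBS minus WT was 0.20 ± 0.07 (limma, adjusted p = 0.123), or 0.09 without APP-PBS replicate 3 and WT replicate 2. The remaining 3 differed from WT in APP-PBS by 0.10 ± 0.05 for Tjp1, the scaffold ZO-1, 0.02 ± 0.06 for Ocln, occludin, and -0.03 ± 0.05 for Esam, an adhesion molecule of endothelial cells. APP-amylin minus APP-PBS ranged from -0.10 to 0.02 over the 6 genes.

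**Figure D2:**
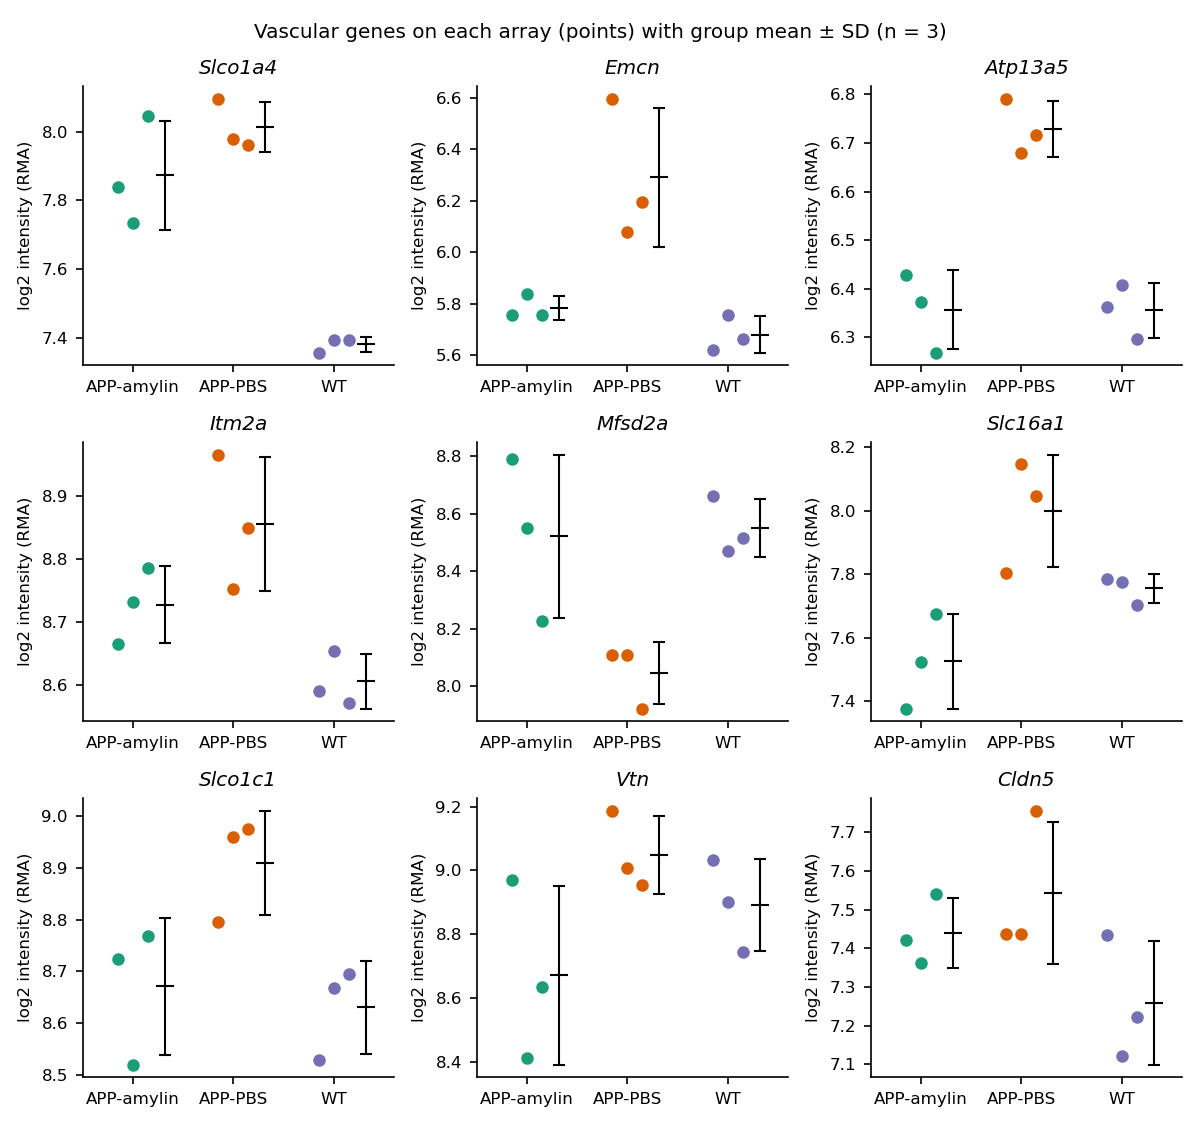
Log2 intensity of 9 members (1 panel each, own axis) in each array, with groups from left to right APP-amylin, APP-PBS and WT (3 points a group, 1 per array, with mean ± SD beside them). Slco1a4 is above WT in all 6 transgenic arrays, and Mfsd2a is lower in the APP-PBS arrays than in all the others.

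The signalling receptors were not called either. Flt1, VEGF receptor 1, measured 7.98, 7.96 and 7.92 in APP-amylin, 7.93, 7.95 and 8.26 in APP-PBS and 7.85, 7.67 and 7.76 in WT. All 6 transgenic arrays lay above WT, and APP-PBS replicate 3 was the highest. APP-PBS minus WT was 0.28 ± 0.09 (limma, adjusted p = 0.0808) and APP-amylin minus WT was 0.19 ± 0.09 (limma, adjusted p = 0.263). The difference of APP-PBS was 0.18 without APP-PBS replicate 3 and 0.14 without WT replicate 2 as well.

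Eng, endoglin, a co-receptor for TGF-beta family ligands, measured 7.59, 7.33 and 7.33 in APP-amylin, 7.33, 7.39 and 7.54 in APP-PBS and 7.31, 7.12 and 7.09 in WT. The transgenic arrays were all above WT, by a small margin over WT replicate 1. APP-PBS minus WT was 0.25 ± 0.09 (limma, adjusted p = 0.151) and APP-amylin minus WT was 0.25 ± 0.09 (limma, adjusted p = 0.177). Without APP-PBS replicate 3 and WT replicate 2, APP-PBS minus WT was 0.16. Tek, the angiopoietin receptor TIE2, differed between APP-PBS and WT by 0.19 ± 0.07 (limma, adjusted p = 0.159), and its lowest APP-PBS array was barely above its highest WT array. For Tek the difference was 0.12 without WT replicate 2 and 0.08 without APP-PBS replicate 3 as well. Kdr, VEGF receptor 2, measured 6.51, 5.95 and 5.96 in APP-amylin, 6.13, 6.03 and 6.36 in APP-PBS and 5.92, 5.84 and 5.97 in WT. Its highest array was APP-amylin replicate 1, and its pooled SD within groups, 0.211, was the largest of the 31 members. Between APP-PBS and WT it differed by 0.26 ± 0.14 (limma, adjusted p = 0.349), by 0.17 without APP-PBS replicate 3 and by 0.13 without WT replicate 2 as well. Tie1, the orphan receptor related to TIE2, differed by -0.08 ± 0.06.

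Of the other endothelial proteins, Emcn and Itm2a were called higher in APP-PBS. Emcn measured 5.76, 5.84 and 5.76 in APP-amylin, 6.60, 6.08 and 6.20 in APP-PBS and 5.62, 5.76 and 5.66 in WT. The APP-PBS arrays were above all others, with replicate 1 farthest, while APP-amylin and WT overlapped. Exactly the same Emcn value stood in 3 arrays, APP-amylin replicates 1 and 3 and WT replicate 2. APP-PBS averaged 6.29 ± 0.27 and WT 5.68 ± 0.07, a difference of 0.61 ± 0.11 (limma, adjusted p = 0.0106) or 1.53-fold. The call was lost without WT replicate 1 (limma, adjusted p = 0.0521) and without APP-PBS replicate 3 and WT replicate 2 together (limma, adjusted p = 0.0701). APP-amylin minus APP-PBS was -0.51 ± 0.11, with a 95% interval from -0.76 to -0.25 (limma, adjusted p = 0.534).

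Itm2a, a transmembrane protein found in brain endothelium, measured 8.67, 8.73 and 8.79 in APP-amylin, 8.97, 8.75 and 8.85 in APP-PBS and 8.59, 8.65 and 8.57 in WT. APP-amylin lay between the others and overlapped APP-PBS only. In APP-PBS it exceeded WT by 0.25 ± 0.06 (limma, adjusted p = 0.0404), and the call was lost when any of 6 arrays was left out alone, with adjusted p up to 0.132 in limma. It was also lost with the replicate number as a block (limma, adjusted p = 0.0725), with the 2 groups fitted alone (limma, adjusted p = 0.0632) and without APP-PBS replicate 3 and WT replicate 2 together (limma, adjusted p = 0.164). Vwf, von Willebrand factor, and Egfl7, a secreted endothelial protein, differed from WT by -0.03 ± 0.07 and -0.05 ± 0.07 in APP-PBS. Vwf had exactly the same value in 6 of the 9 arrays, and 14 of the 31 members (45.2%) had such ties, where 54.8% of all genes did.

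One of 6 pericyte genes was called. Atp13a5, a P-type ATPase gene used as a marker of brain pericytes, measured 6.43, 6.37 and 6.27 in APP-amylin, 6.79, 6.68 and 6.72 in APP-PBS and 6.36, 6.41 and 6.30 in WT. The APP-PBS arrays were above all 6 others, and APP-amylin and WT overlapped throughout. APP-PBS averaged 6.73 ± 0.06 and WT 6.36 ± 0.06, a difference of 0.37 ± 0.06 (limma, adjusted p = 0.00493) or 1.30-fold. It was called in 18 of 19 alternatives and lost only without APP-PBS replicate 3 and WT replicate 2 together (limma, adjusted p = 0.0524). APP-amylin minus APP-PBS was -0.37 ± 0.06, with a 95% interval from -0.50 to -0.24 (limma, adjusted p = 0.269), and APP-amylin minus WT was 0.00 ± 0.06.

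The other pericyte genes gave no call. Rgs5, a regulator of G-protein signalling, measured 8.23, 7.82 and 8.05 in APP-amylin, 8.23, 8.26 and 8.13 in APP-PBS and 8.02, 7.97 and 7.97 in WT. APP-PBS lay above WT and APP-amylin spanned both. The difference of APP-PBS from WT was 0.22 ± 0.09 (limma, adjusted p = 0.201). Vtn, vitronectin, an extracellular matrix protein made by pericytes, measured 8.97, 8.41 and 8.63 in APP-amylin, 9.19, 9.01 and 8.95 in APP-PBS and 9.03, 8.90 and 8.74 in WT. The 2 lowest arrays were APP-amylin replicates 2 and 3, and the groups overlapped. APP-amylin minus APP-PBS was -0.38 ± 0.13 (limma, adjusted p = 0.686). Pdgfrb, the receptor through which endothelial PDGF recruits pericytes, differed from WT by -0.04 ± 0.10 in APP-PBS, Notch3, the mural cell Notch receptor, by 0.03 ± 0.09, and Abcc9, a subunit of ATP-sensitive potassium channels, by -0.02 ± 0.07.

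The 3 transcription factors were higher in mean in APP-PBS than in WT, with differences of 0.16 ± 0.11 for Foxq1, 0.11 ± 0.05 for Sox17 and 0.10 ± 0.09 for Sox18, and none was called (limma, adjusted p from 0.239 to 0.597). For Foxq1 the difference was 0.06 to 0.27 when 1 array was left out, lowest without APP-PBS replicate 2 and highest without APP-PBS replicate 1, with 0.08 without WT replicate 2 and 0.07 without APP-PBS replicate 3 as well. For Sox18 it was 0.03 without APP-PBS replicate 1. Foxq1 is a forkhead factor enriched in brain endothelium, and Sox17 and Sox18 act in endothelial and arterial differentiation. Sox17 measured 5.85, 5.94 and 5.99 in APP-amylin, 5.96, 5.91 and 5.98 in APP-PBS and 5.87, 5.80 and 5.84 in WT, and only APP-PBS was separate from WT.

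By role, the median difference of APP-PBS from WT was 0.15 for junctions, 0.25 for receptors, 0.11 for the other endothelial proteins, 0.24 for transporters, 0.09 for pericyte genes and 0.11 for transcription factors. Called genes numbered 0 of 6, 0 of 5, 2 of 4, 2 of 7, 1 of 6 and 0 of 3 in that order, where 8.58% of all genes were called. With so few genes in each role, these counts are not read as a contrast between roles. The differences between roles were not tested.

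**Figure D3:**
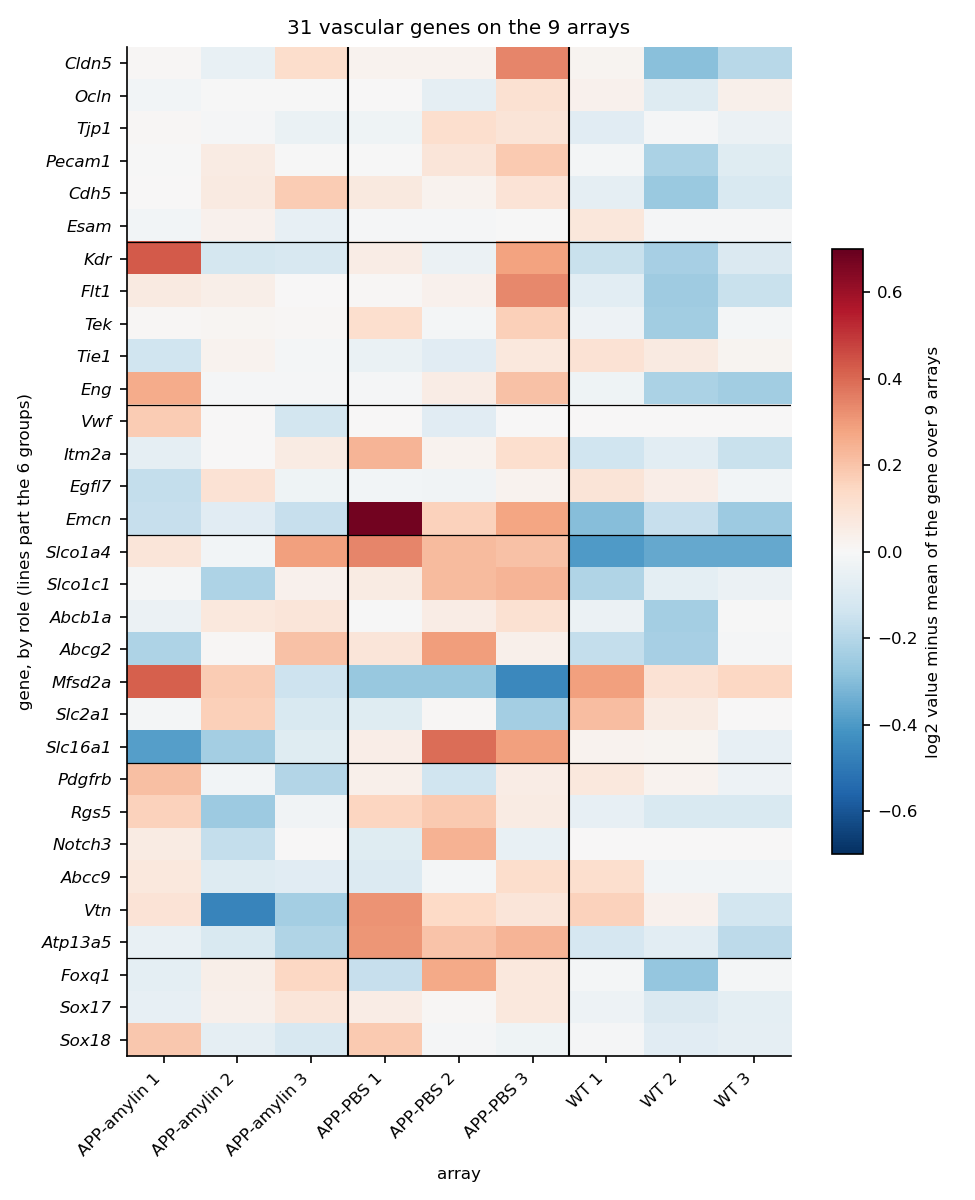
Deviation of each member from its mean over the 9 arrays (log2), by role, in APP-amylin, APP-PBS and WT arrays from left to right. APP-PBS replicate 3 is above the mean for 26 of 31 members, and WT replicate 2 is the lowest array for 11.

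With amylin, no member was called against APP-PBS, where 1 gene of 19938 (0.00502%) was called in all. Of the 31 means, 26 were lower in APP-amylin than in APP-PBS and 5 were higher, where 50.3% of all genes had a higher mean, and the count of lower means was 18 without APP-PBS replicate 3. The median difference was -0.04 for the members and 0.00 for all genes. At an unadjusted p under 0.05 in limma there were 6 members, 1 higher and 5 lower, where 6.9% of all genes passed, 3.72% higher and 3.18% lower. The arrays of the 2 groups did not overlap for Mfsd2a, higher, and for Emcn, Slco1c1, Slc16a1 and Atp13a5, lower, where 9.3% of all genes did not overlap, 5.49% higher and 3.81% lower. Both APP-amylin and WT were set against the same APP-PBS arrays, so opposite differences for a gene in the 2 comparisons are not separate observations.

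Against WT, APP-amylin brains had 20 higher and 11 lower member means, with a median difference of 0.05, where that of all genes was -0.01. By mean, 45.9% of all genes were higher. The groups did not overlap for 8 members (25.8%), against 23.1% of all genes. Of these, 7 were higher and 1 was lower, against 10.8% and 12.3% of all genes. The lower one was Slc16a1.

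Another 8 vascular lists held 123 genes, of which 117 were measured. The lists were chosen with earlier results of these data known. They are not limited to genes of vessels alone, so in bulk tissue a call cannot be assigned to vessel cells. They gave 16 calls (13.7%) between APP-PBS and WT, where 8.58% of all genes were called. By direction, 11 calls were higher and 5 lower, where 3.66% of all genes were called higher and 4.92% lower. The count was 8 to 16 when 1 array was left out, with the 8 (6.84%) found without WT replicate 3, where 5.0% of all genes were called. It was 2 (1.71%), Slc38a3 and Nrp1, without APP-PBS replicate 3 and WT replicate 2, where 2.24% of all genes were called. Adgrl4, an adhesion G-protein-coupled receptor of endothelial cells, was 0.73 ± 0.11 higher (limma, adjusted p = 0.00362), and Fli1, an ETS factor of endothelial and blood cells, 0.59 ± 0.10 higher (limma, adjusted p = 0.00719). Slc38a3, a glutamine transporter, was 0.49 ± 0.06 higher (limma, adjusted p = 0.00107) and Cav1, the caveolin of endothelial vesicles, 0.41 ± 0.09 higher (limma, adjusted p = 0.0204). Car4, a carbonic anhydrase of capillaries, fell by 0.46 (limma, adjusted p = 0.00985) and Nrp1, a co-receptor for VEGF and semaphorins, by 0.58 (limma, adjusted p = 0.0014). Tcf7l2 fell by 1.21 (limma, adjusted p = 0.00719) and is also on the list of thalamus markers. Lef1, another Wnt-responsive factor, fell by 0.60 (limma, adjusted p = 0.0168), and whether it follows the thalamus markers was not tested.

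The other calls between APP-PBS and WT were Slc40a1, the iron exporter ferroportin, at 0.54, Myl9, a myosin light chain of smooth muscle, at 0.43, Abcb1b, a second P-glycoprotein gene, at 0.35, Icam2 at 0.33, Tspan12, a co-activator of Norrin signalling, at 0.29, Cldn12 at 0.24, Acvrl1, the endothelial BMP9 receptor, at 0.23 and Vegfb at -0.24. Slc38a3 and Nrp1 were called under all 19 alternatives, Adgrl4, Fli1, Car4, Tcf7l2 and Myl9 under 18 of 19, Icam2 under 16 of 18 and Lef1 under 15 of 19. Fewer alternatives kept the call of Cav1 and Acvrl1, 13 of 19 each, Vegfb, 12 of 19, and Cldn12, 10 of 19. Tspan12 was called under 8 of 19, and Slc40a1 and Abcb1b under 8 of 18. None of 7 endothelial activation genes was called, and the smallest p belonged to Vcam1, a leukocyte adhesion molecule, at 0.24 ± 0.07 (limma, adjusted p = 0.0727), and Procr, the protein C receptor, at 0.26 ± 0.12 (limma, adjusted p = 0.246). None of 12 genes on the list of other pericyte genes was called. The smallest p there belonged to Pdgfra, at -0.20 ± 0.09 (limma, adjusted p = 0.237), and Cd248, endosialin, at 0.08 ± 0.08 (limma, adjusted p = 0.658). Pdgfra is not specific to pericytes, so its value is not read as theirs.

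Against WT, 7 of the 117 were called in APP-amylin (5.98%), where 5.21% of all genes were called. Vegfb, Nrp1, Lef1, Tcf7l2 and Car4 were lower and Fli1 and Adgrl4 higher, where 2.86% of all genes were called lower and 2.35% higher. Without APP-PBS replicate 3 and WT replicate 2 the count was 3, Nrp1, Tcf7l2 and Lef1. None of the 117 was called between APP-amylin and APP-PBS, where the smallest adjusted p in limma was 0.356, for Slc38a3 at -0.31, followed by Rasip1, an effector of endothelial lumen formation, at -0.20 (limma, adjusted p = 0.574).

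**Figure D4:**
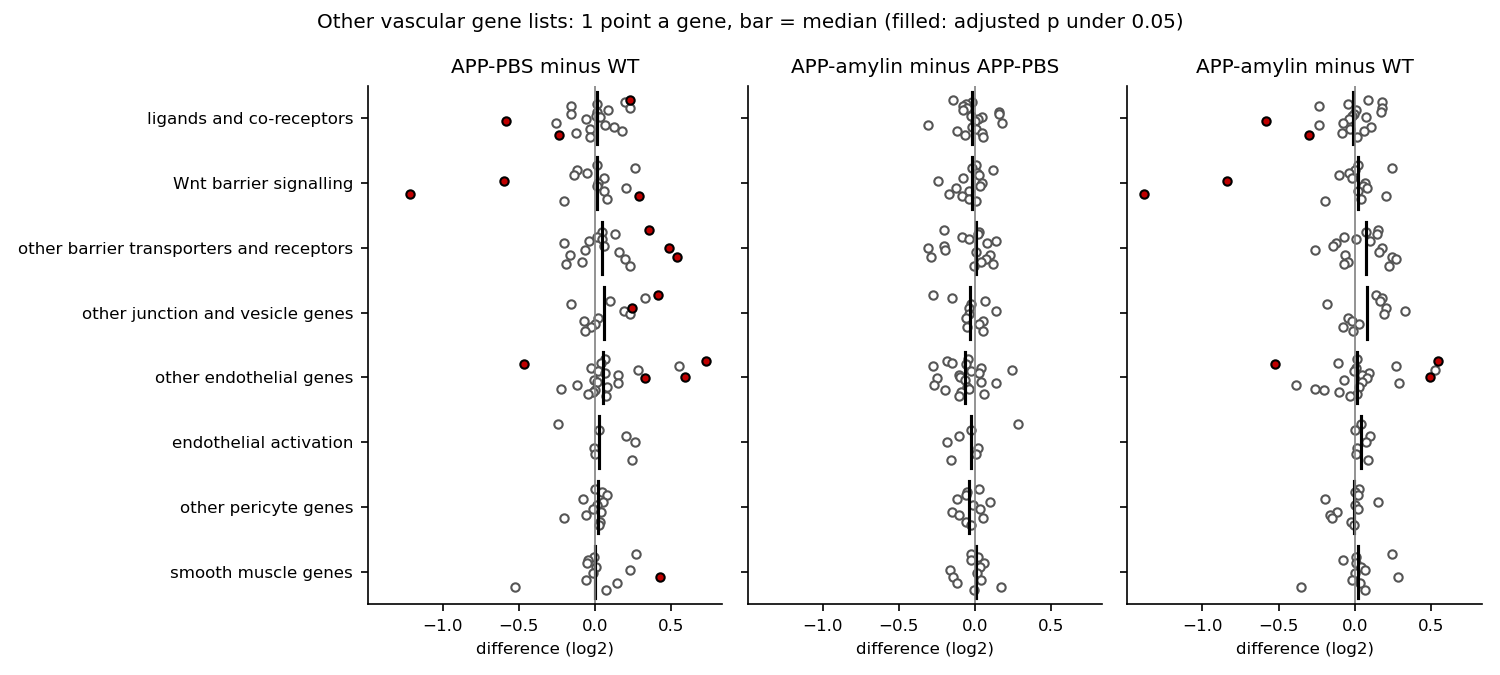
Log2 difference of each gene in the 8 other vascular lists (1 point a gene, bar at the list's median) for the 3 comparisons, with n = 3 arrays a group. Filled points mark an adjusted p under 0.05: 16 genes between APP-PBS and WT, none between APP-amylin and APP-PBS and 7 between APP-amylin and WT.

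The 5 measured endothelial markers, Cldn5, Cdh5, Pecam1, Flt1 and Tie1, are themselves members and so give no separate measure of cell content. They summed to 34.51 to 34.87 in APP-amylin, 34.64 to 35.62 in APP-PBS and 33.63 to 34.56 in WT, and none was called. The 6 pericyte markers are members too, except Kcnj8. They summed to 41.98 to 43.15 in APP-amylin, 43.27 to 43.66 in APP-PBS and 42.36 to 43.13 in WT, and the call among them is that of Atp13a5 given above. Of 8 fibroblast markers, Dcn, a matrix proteoglycan, was called lower in APP-PBS, at -1.03. Of 8 choroid plexus markers, Kcnj13 was called higher and Otx2 lower in APP-PBS. Of 5 smooth muscle markers and 2 red blood cell markers none was called. Between APP-PBS and WT, calls were lower for 1 of 6 astrocyte, 1 of 5 oligodendrocyte, 2 of 6 neuron and 1 of 6 olfactory bulb markers. The olfactory bulb call was Uchl1, while 5 of the 6 means were higher in APP-PBS, with a median difference of 1.29. Among the astrocyte markers, 4 of 6 means were higher in APP-PBS, and all 5 oligodendrocyte means were lower. Between APP-amylin and WT, 4 of 5 oligodendrocyte markers were called lower and 1 of 6 olfactory bulb markers, Eomes, was called higher. The 6 olfactory bulb markers summed to 40.53 to 47.52 in APP-amylin, 40.15 to 47.86 in APP-PBS and 37.45 to 38.18 in WT. The part that markers other than the members themselves have in the members' differences was not tested.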

How the data were processed

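The authors deposited log2 intensities of 35556 probe sets for each of 9 arrays. Per the submitters' processing notes, the tools were RMA and oligo, whose versions are not given in the sources used here, nor is a genome build. RMA combines background correction, quantile normalization across arrays and a robust summary of each probe set. The values were used as deposited, with no filter on low signal. Of the probe sets, 21789 name 1 gene symbol, 1621 several and 12146 none. Where several probe sets name a gene, the highest mean over 9 arrays decided, which left 19938 genes.

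The tests used limma 3.58.1 under R 4.3.3 (with the data.table package, 1.17.8): 1 model of group means for all arrays, moderated without a trend, with 6 residual degrees of freedom plus 3.53 from the prior. It was tested on simulated data with 50 genes changed at each size. Between APP-PBS and WT it called 18.0% of changes of 0.25 log2 and 90.0% of changes of 0.5. Between APP-amylin and APP-PBS it called 26.0% and 80.0%. Most changes of 0.25 in that test were thus missed. The adjusted p of a gene depends on the p-values of all genes. On the real arrays, 1710 genes were called between APP-PBS and WT and 1 between APP-amylin and APP-PBS. Whether the shares above hold for the real arrays was not tested. The p-values were adjusted over all genes. Named are the members and the genes of other lists that were called. The rule also allowed the 2 with the smallest p per list and comparison, named for some lists. Members and lists were chosen with earlier results of these data known, and leaving out APP-PBS replicate 3 with WT replicate 2 was added after seeing the data. The other alternatives covered scaling, filters, prior, array weights, replicate block and single arrays.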

Additional observations from a re-analysis of the deposited data

How the results depend on the processing

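Slco1a4 remained called higher in APP-PBS than in WT under all 19 alternatives, Atp13a5 under 18 of 19, Emcn under 16 of 18, Mfsd2a under 11 of 19 and Itm2a under 10 of 19. No member was called between APP-amylin and APP-PBS under any alternative. Emcn lies in the lower 50% of genes by mean and has no value where these are left out. With 3 arrays a group, and no measure of signal over background in the values, a difference that was not called is not shown to be absent.

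Between APP-PBS and WT, 5 members were called, against 2 to 5 with 1 array left out, 1 without APP-PBS replicate 3 and WT replicate 2 together, and 10 with array weights. Genes called there numbered 1710, against 863 to 1779 with 1 array left out, 446 without both, 2301 with array weights and 2428 at an adjusted p under 0.1. Called genes of the other vascular lists numbered 16, against 8 to 16, 2, 21 and 22 in that order. Between APP-amylin and APP-PBS, 1 gene was called, against 0 to 7 with 1 array left out, 0 without both, 0 with the 2 groups alone and 0 with the replicate block. Between APP-amylin and WT, 1039 genes were called, against 447 to 1086 with 1 array left out, 334 without both and 1723 at an adjusted p under 0.1. The same comparison called 1 member, against 0 without both and 2 at an adjusted p under 0.1. It called 7 other vascular genes, against 4 to 8 with 1 array left out and 3 without both.

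With the replicate number as a block, 4 members were called between APP-PBS and WT, and Itm2a was lost (limma, adjusted p = 0.0725). Same-numbered arrays of different groups deviated together with correlations from -0.056 to 0.183, and differently numbered arrays with correlations from -0.232 to 0.126. The labels do not say that the numbers pair the samples, and they were not taken to do so.

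Small differences, none of them called, changed sign. With any 1 array, or APP-PBS replicate 3 and WT replicate 2, left out, the log2 differences that changed sign ranged as follows. For APP-PBS minus WT they were Ocln (-0.0624 to 0.0641), Esam (-0.0448 to 0.0016), Pdgfrb (-0.0721 to 0.0236), Notch3 (-0.072 to 0.0923), Abcc9 (-0.1037 to 0.027). For APP-amylin minus APP-PBS they were Cldn5 (-0.1561 to 0.0028), Ocln (-0.0642 to 0.0212), Cdh5 (-0.0323 to 0.0554), Esam (-0.0324 to 0.0098), Kdr (-0.2169 to 0.0605), Flt1 (-0.1492 to 0.0143), Tie1 (-0.0588 to 0.0254), Eng (-0.09 to 0.0592), Vwf (-0.0376 to 0.1134), Egfl7 (-0.0909 to 0.0433), Abcb1a (-0.0401 to 0.0269), Pdgfrb (-0.0956 to 0.112), Notch3 (-0.1308 to 0.0336), Abcc9 (-0.0889 to 0.0222), Foxq1 (-0.13 to 0.0833), Sox17 (-0.0566 to 0.0154), Sox18 (-0.1374 to 0.0236). For APP-amylin minus WT they were Ocln (-0.0412 to 0.0225), Vwf (-0.0657 to 0.0852), Slco1c1 (-0.0104 to 0.1162), Mfsd2a (-0.1626 to 0.1201), Pdgfrb (-0.1331 to 0.0746), Rgs5 (-0.051 to 0.1565), Notch3 (-0.0859 to 0.0278), Atp13a5 (-0.0348 to 0.0452), Sox18 (-0.0363 to 0.116). With array weights, the reversed differences were Abcc9 at 0.0137 for APP-PBS minus WT and Esam at 0.0058, Egfl7 at 0.0306, Pdgfrb at -0.0367, Foxq1 at 0.0056 for APP-amylin minus APP-PBS and Ocln at 0.0054, Vwf at -0.0076, Egfl7 at 0.001, Slco1c1 at -0.036, Slc2a1 at 0.0018, Rgs5 at -0.0457 for APP-amylin minus WT. With quantile normalization repeated, the reversed differences were Esam at 0.0016 for APP-amylin minus APP-PBS and Ocln at 0.0069 for APP-amylin minus WT. With arrays centred on their median, the reversed differences were Eng at 0.0045 for APP-amylin minus APP-PBS and Ocln at 0.0091 for APP-amylin minus WT. The cause was not tested.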
